A study of Arabidopsis thaliana with 12 samples.

Results

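De novo shoots of the dme-2 mutant were compared with de novo shoots of wild type (WT) in RNA-seq, over every locus of the gene table. The comparison used the 6 shoot libraries of the 12 RNA-seq libraries in the series, 3 WT and 3 dme-2, and 19114 of the 27147 annotated loci had enough counts to be tested. All plants were Arabidopsis thaliana of the ecotype Landsberg erecta (Ler). Both groups carry the erecta mutation of this ecotype. WT plants carried no mutation of DEMETER (DME), and dme-2 plants carried its dme-2 allele. In both groups true leaves of 2-week-old seedlings were kept for 7 days in the dark on callus-inducing medium (CIM), which holds an auxin and a cytokinin, and then for 14 days in long days on shoot-inducing medium (SIM), which holds an auxin and more cytokinin. The regenerated shoots were harvested after those 14 days. The study describes the 3 libraries of each group as biological replicates and does not say how many plants or explants each one pooled. Where libraries came from one round of culture, the p-values measure the spread within that round.

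DME is a DNA glycosylase that cuts 5-methylcytosine out of DNA, so that the methylated base is replaced by an unmethylated one. It is best known for opening imprinted genes in the central cell of the female gametophyte. Its loss can change a gene in a shoot directly, through methylation at that gene, or through other genes, and an expression table does not separate these. De novo shoots are leafy organs that form on callus without an embryo, and they pass from a hormone-rich, wounded, non-green tissue to a photosynthetic one while in culture.

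DME itself was read in every shoot library. Its level, in TPM (a length-corrected share of the library's transcripts), was 19.4, 18.9 and 18.6 in the WT shoots and 7.89, 7.49 and 7.89 in the dme-2 shoots. The dme-2 libraries all lay below the WT libraries (log2 fold change -1.26 ± 0.053 SE, edgeR adjusted p = 8.2e-16). Transcript from the locus was thus lower and still present in dme-2, and where in the gene these reads fall was not analysed here. Library sizes ran from 15381207 to 19228327 counts, and the trimmed-mean scaling factors from 0.968 to 1.02, so depth differed little between the groups. The median gene varied by an SD of 0.088 (WT) and 0.10 (dme-2) on the scale of log2 counts relative to library size between libraries of a group. At this spread, changes well below 2-fold passed the test.

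Marker genes of leaf tissue were high in both groups and lower in dme-2. The 2 matched mesophyll markers, LHCB3 and RBCS1A, summed to 17910 to 19910 TPM in WT and 12020 to 13720 TPM in dme-2. LHCB3, a light-harvesting protein, lay at 3378, 3453 and 3549 TPM in WT and 3190, 3011 and 3115 TPM in dme-2 (-0.15 in log2). Most of the drop was in RBCS1A, at 14530, 15740 and 16360 TPM in WT and 10530, 9013 and 8958 TPM in dme-2 (-0.67 in log2). RBCS1A has 4 Col-0 matches, so its level is uncertain. The 3 shoot meristem markers summed to 9.51 to 9.93 TPM in WT and 17.7 to 22.4 TPM in dme-2, nearly all of it STM, while WUS and CLV3 reached no more than 0.98 TPM. The 6 callus markers summed to 2.88 to 4.18 TPM in WT and 2.56 to 3.83 TPM in dme-2, with LBD17 and LBD29 at 0 in all 6 libraries. The 6 endodermis markers summed to 19.5 to 20.2 TPM in WT and 15.7 to 17.6 TPM in dme-2, mostly SCR, with CASP5 at 0, and the 4 root-hair markers stayed at or below 0.57 TPM, with EXPA7 at 0. The summed level of the 4 xylem markers was 75.2 to 81.4 TPM in WT and 122.9 to 129.9 TPM in dme-2. The 3 phloem markers summed to 137.6 to 146.1 TPM in WT and 157.8 to 166.2 TPM in dme-2, and the 4 guard cell markers to 44.1 to 48.9 and 41.5 to 49.1 TPM. In whole shoots, fewer cells of a type and less RNA per cell cannot be told apart, and this holds for every difference given here.

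Over all genes tested, 5098 (26.7%) were higher and 4995 (26.1%) were lower in dme-2 shoots at an adjusted p under 0.05 (edgeR quasi-likelihood test, Benjamini-Hochberg adjustment over 19114 genes), 52.8% in all. The median log2 fold change over all genes was -0.0045. With a change of at least 2-fold required as well, 885 genes (4.63%) were higher and 461 (2.41%) lower, 7.04% in all. With the study's cut-off of an unadjusted p under 0.05 and a 2-fold change, 887 (4.64%) were higher and 466 (2.44%) lower, 7.08% in all. The 3 dme-2 libraries lay wholly above the WT libraries for 29.3% of the genes and wholly below for 29.1%. Each gene group below is read against these shares.

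Among the largest rises were genes of stress and jasmonate responses. BHLH92, a basic helix-loop-helix factor, lay at 0.13, 0 and 0.89 TPM in WT and 12.5, 14.3 and 13.1 TPM in dme-2 (log2 fold change 5.36 ± 0.29 SE, edgeR adjusted p = 9.1e-14). MAPKKK21, a kinase of the mitogen-activated cascade, rose from 0.79, 0.69 and 0.67 TPM to 12.1, 11.8 and 15.7 TPM (4.0 ± 0.18 in log2). RL1, a small MYB-related protein of the RADIALIS family, lay at 3.2, 2.1 and 1.72 TPM in WT and 24.5, 30.2 and 36.5 TPM in dme-2 (4.46 ± 0.23 in log2). In none of these did the groups overlap. Further rises among the 10 largest were the floral gene PI and the jasmonate genes JAZ8 and AT3G22275, all described below, an AP2/ERF-type factor (AT5G52020, 3.86), a bHLH factor (AT2G22760, 3.73) and AT2G25460 (3.88), all in log2. AT1G53260, of unknown function, had 45 counts over the dme-2 libraries and 2 over the WT libraries, a ratio of 20.7 with a 95% counting interval of 5.4 to 176.

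Lists of genes were then read as groups. Of 85 lists, 14 with at least 5 tested genes had a median log2 fold change of at least 0.4 and 10 such lists had one of -0.4 or lower. The jasmonate list had the highest median of the lists with at least 5 tested genes and the flavonoid list the lowest, and the iron list is wide with a median near 0.

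**Figure D1:**
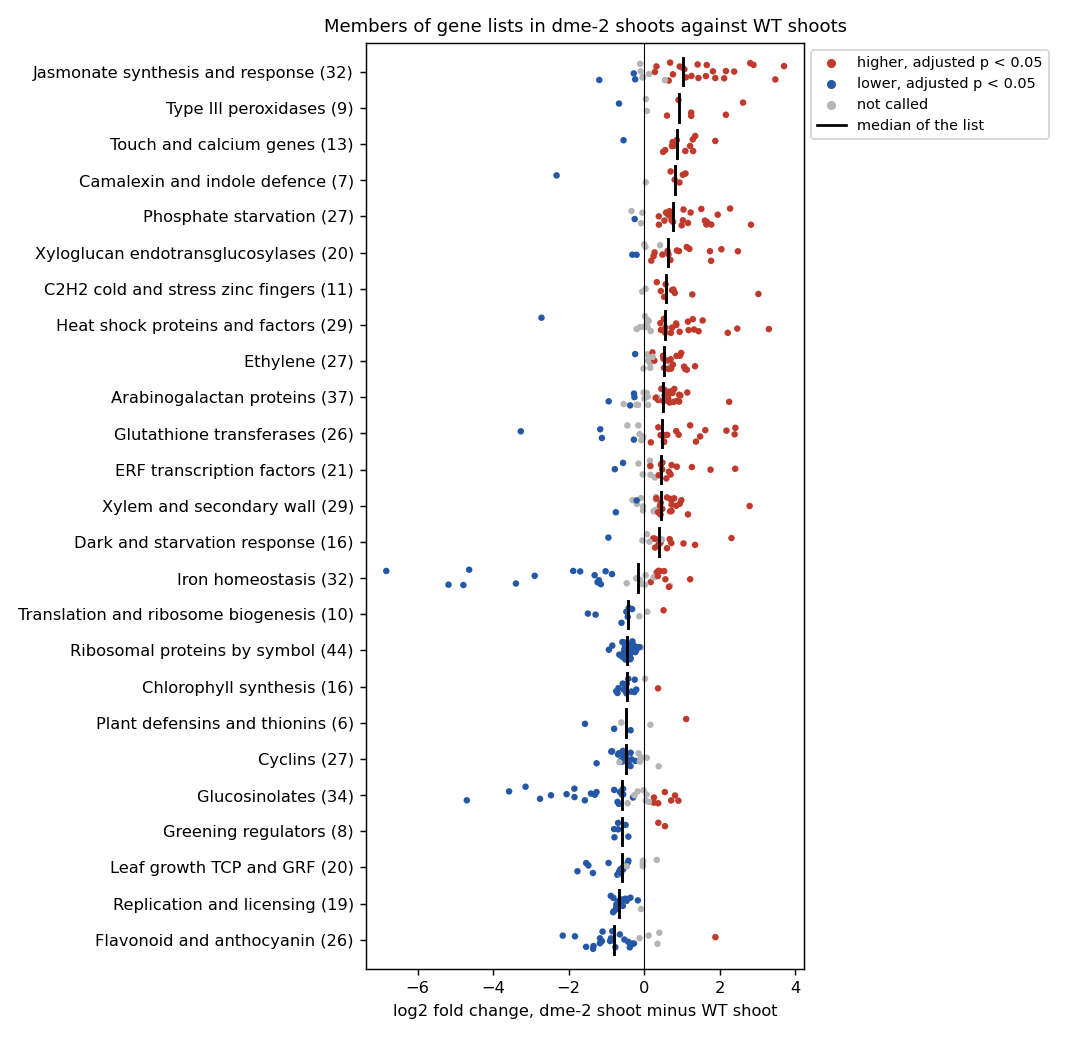
Each point is 1 tested gene, placed by its log2 fold change (dme-2 shoot minus WT shoot, x axis) in the list named on the y axis with its number of tested genes, with bars at the list medians. The lists plotted are those with a median of 0.4 or more, or of -0.4 or less, and at least 5 tested genes, plus iron; medians run from 1.03 for jasmonate to -0.8 for flavonoids, while the 4 bHLH genes of the iron list lie between -6.83 and -4.63.

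Jasmonate genes rose together. Jasmonate is the lipid-derived wound hormone, and when its isoleucine conjugate binds the receptor COI1, JAZ repressors are destroyed and MYC factors switch on target genes, among them the JAZ genes themselves. Of 32 tested genes of the jasmonate list, 23 rose and 3 fell, against 26.7% and 26.1% of all genes. At 2-fold or more, 17 rose and 1 fell, against 4.63% and 2.41%. The median log2 fold change of the list was 1.03.

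The synthesis genes were among the steepest. LOX3, a plastid 13-lipoxygenase at the start of the pathway, lay at 19.4, 15.7 and 16.6 TPM in the 3 WT libraries and at 129, 132 and 131 TPM in the 3 dme-2 libraries (log2 fold change 2.9 ± 0.054 SE, edgeR adjusted p = 2.9e-22). LOX4, another lipoxygenase of the same step, lay at 32.1, 35.1 and 34.4 TPM in WT and 178, 177 and 177 TPM in dme-2 (2.38 ± 0.047 in log2). For both genes the dme-2 libraries lay far above WT and close to each other. AOC3, an allene oxide cyclase, rose from 94.5, 91.8 and 81.4 TPM to 306, 331 and 334 TPM (1.88 ± 0.062 in log2). Of the synthesis genes added here after their values were seen, OPR3, the reductase that commits the pathway in the peroxisome, rose by 1.44 ± 0.048 and AOS, the allene oxide synthase, by 0.94 ± 0.043 on the log2 scale. LOX2, by contrast, the most abundant lipoxygenase of leaves, fell by 0.28 ± 0.045 from a WT mean of 890.0 TPM to 732.9 TPM.

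The repressor genes rose with them. JAZ8 lay at 9.96, 4.83 and 5.6 TPM in WT and 68.5, 103 and 112 TPM in dme-2 (log2 fold change 3.71 ± 0.21 SE, edgeR adjusted p = 3.7e-13), and JAZ7 at 8.9, 12.2 and 8.39 and 109, 103 and 122.6 TPM (3.47 ± 0.11 in log2). JAZ5 rose from 26.1, 24.98 and 24.2 to 128, 120.5 and 128 TPM (2.17 ± 0.060 in log2) and JAZ10 from 15.8, 11.6 and 11.4 to 47.1, 57.1 and 57.9 TPM (2.12 ± 0.10 in log2). The groups did not overlap for any of these 4 repressors. AT3G22275, annotated as a further jasmonate ZIM-domain protein, had 6 counts over the WT libraries and 115 over the dme-2 libraries. CYP94B3, which oxidises and so inactivates the active hormone conjugate, lay at 4.07, 4.4 and 2.43 TPM in WT and 23.7, 23.4 and 24.5 TPM in dme-2 (2.81 ± 0.13 in log2).

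The receptor, the conjugating enzyme and the MYC factors showed no single direction. The receptor gene COI1 lay at 20.3 TPM on average in WT and 18.2 TPM in dme-2 and did not pass the test (edgeR adjusted p = 0.24), and neither did JAR1, the enzyme that makes the conjugate (adjusted p = 0.55). MYC2, the main factor of the response, rose by 0.65 ± 0.044, and MYC4 fell by 0.24 ± 0.067. VSP2, a vegetative storage protein often used as a readout of the MYC branch, fell from a mean of 254 TPM to 114 TPM (log2 fold change -1.19 ± 0.050 SE, edgeR adjusted p = 8.1e-16). VSP2 matched 2 Col-0 genes, and reads of close copies may have been split between them, so its level is uncertain. COI1, JAR1, MYC2, MYC4 and VSP2 were picked after their values were seen.

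**Figure D2:**
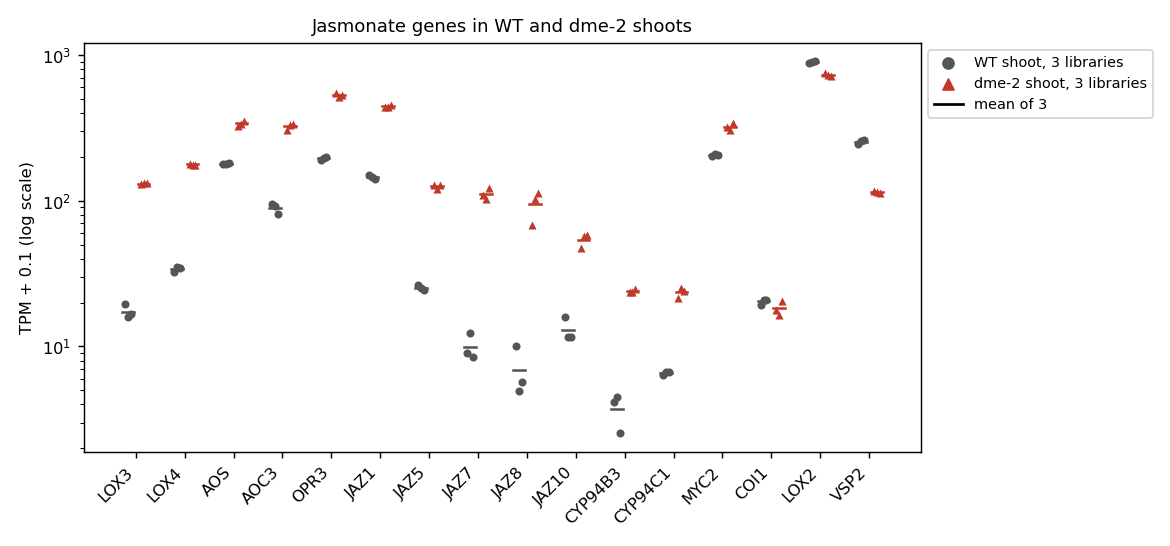
TPM + 0.1 on a log axis for jasmonate genes in each of 3 WT (circles) and 3 dme-2 (triangles) shoot libraries, with bars at the means. From LOX3 through MYC2 the dme-2 libraries lie above WT, COI1 overlaps (means 20.3 and 18.2 TPM), and LOX2 and VSP2 lie below (VSP2 means 254 and 114 TPM).

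Touch, calcium and zinc-finger stress genes rose as well. Of 13 tested touch and calcium genes, 12 rose and 1 fell, with a median log2 fold change of 0.87, and 6 of them rose at least 2-fold. TCH3, a calmodulin-like touch gene, lay at 282, 258 and 257 TPM in WT and 637, 686 and 711 TPM in dme-2 (1.3 ± 0.046 in log2). Its relatives CML39 (1.88), CML41 (1.35), CML40 (1.29), CML42 (1.22) and CML38 (1.09), also calcium-binding, rose on the log2 scale as well, each without overlap of the groups. Of 11 tested C2H2 stress zinc fingers, 9 rose, with a median of 0.57. ZAT8 of that family lay at 1.44, 2.19 and 1.03 TPM in WT and 12.9, 13.3 and 12.6 TPM in dme-2 (3.03 ± 0.26 in log2).

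In the list of peptides and their receptors, 13 of 31 tested genes rose, 2 fell and 16 were not called. PEPR1 and PEPR2 are the receptors of the plant elicitor peptides that are released on damage. PEPR1 lay at 15.6, 16.8 and 17.03 TPM in WT and 52.3, 52.5 and 51.5 TPM in dme-2 (1.64 ± 0.051 in log2), and PEPR2 at 1.76, 1.59 and 1.71 and 6.42, 7.5 and 7.05 TPM (1.98 ± 0.11 in log2). PSK2, a precursor of the growth peptide phytosulfokine, lay at 7.49, 5.28 and 14.6 TPM in WT and 49.1, 41.3 and 31.2 TPM in dme-2 (1.81 ± 0.13 in log2). All 3 were separated between the groups. MYB15, an R2R3-MYB factor of defence and cold responses, rose from 27.8, 29.5 and 30.4 TPM to 124, 141 and 142 TPM (2.17 ± 0.062 in log2).

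Defence genes did not move as a block. In the camalexin and indole defence list 5 of 7 tested genes rose and 1 fell, with a median of 0.81. The member that fell was CYP71A12, a cytochrome P450 of indole defence compounds with 3 Col-0 matches, at 1.0, 0.87 and 1.36 TPM in WT and 0.4, 0.06 and 0.15 TPM in dme-2 (-2.32 ± 0.44 in log2). PEN3, a transporter of defence compounds to the cell surface, lay at 279.5, 291 and 290.3 TPM in WT and 545, 552 and 542 TPM in dme-2 (0.93 ± 0.042 in log2). PAD3, the last enzyme of camalexin synthesis (1.09), CYP81F2, which modifies indole glucosinolates (1.02), WRKY33, the factor that drives camalexin genes (0.81), and PEN2, a myrosinase (0.7), rose too, on the log2 scale. The salicylate list was split, with 8 of 19 genes higher, 4 lower and a median of 0.05. EDS5, the plastid exporter for salicylate synthesis, rose from 3.45, 4.0 and 3.25 TPM to 10.4, 9.89 and 12.1 TPM (1.79 ± 0.11 in log2), and SARD1, a factor that induces synthesis, by 1.31. The pathogenesis-related genes of the list did not share a direction. PR1, a usual readout of salicylate signalling, lay at 11.3, 12.3 and 13.6 TPM in WT and 4.09, 1.66 and 2.6 TPM in dme-2 (-2.08 ± 0.23 in log2), thus lower, and matched 2 Col-0 genes. PR5 (1.03 ± 0.089) and BGL2 (0.74 ± 0.068) rose on the log2 scale, each with 1 Col-0 match. WRKY70, a factor between the salicylate and jasmonate branches, lay at 136, 136 and 138 TPM in WT and 75.1, 70.3 and 70.5 TPM in dme-2 (-0.86 ± 0.050 in log2).

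Receptor families held genes of both directions, as did the whole set of genes (26.7% higher and 26.1% lower). Of 30 tested cysteine-rich receptor-like kinases, 14 rose and 7 fell. CRK41 (1.39), CRK11 (1.33), CRK29 (1.22) and CRK19 (1.16) rose from levels of 7.69 to 15.7 TPM in WT. Of 37 receptor-like proteins, 12 rose (7 with limma on log2 TPM) and 6 fell, from RLP12 at 1.59, 1.61 and 1.68 TPM in WT and 8.07, 10.3 and 9.76 TPM in dme-2 (2.49) to RLP36 (-1.98) and RLP38 (-1.97), all in log2. Of 8 wall-associated kinases, which bind pectin, 5 rose and 3 fell. WAK1, the most abundant of the 8 in WT, lay at 87.6, 85.1 and 84.7 TPM in WT and 45.2, 46.97 and 47.5 TPM in dme-2 (-0.89 ± 0.046 in log2). Among 52 tested WRKY factors, 23 rose and 5 fell.

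Ethylene synthesis and its feedback genes were higher. Ethylene is made from ACC by ACC oxidases and is sensed by receptors such as ETR2, and EBF2 is an F-box protein that degrades the response factor EIN3. Of 27 tested ethylene genes 18 rose and 1 fell, with a median of 0.53. ACO1, an ACC oxidase, lay at 37.4, 41.3 and 41.03 TPM in WT and 85.7, 91.9 and 85.7 TPM in dme-2 (1.13 ± 0.057 in log2). ACO4, another ACC oxidase, lay at 233, 229.7 and 230.2 TPM in WT and 436, 473 and 473 TPM in dme-2 (0.98 ± 0.042 in log2). ACS11, which makes ACC, rose by 1.35, EBF2 by 1.08 and ETR2 by 1.06 on the log2 scale, all with separated groups. Of 21 ERF factors, 13 rose and 2 fell. ERF13 lay at 36.2, 32.5 and 36.9 TPM in WT and 115, 113 and 114 TPM in dme-2 (1.76 ± 0.061 in log2), and EBP, an ethylene-response factor, at 464, 461 and 457 and 1075, 1096 and 1126 TPM (1.26 ± 0.041 in log2).

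Gibberellin genes changed at both ends of hormone turnover. Gibberellin is the growth hormone that GA3-oxidases activate and GA2-oxidases inactivate. GA2OX6 lay at 4.25, 3.65 and 3.45 TPM in WT and 23.6, 22.7 and 22.2 TPM in dme-2 (log2 fold change 2.48 ± 0.11 SE, edgeR adjusted p = 5.7e-15), while GA3OX1 lay at 11.7, 13.4 and 12.6 TPM in WT and 4.89, 5.06 and 4.77 TPM in dme-2 (log2 fold change -1.42 ± 0.13 SE, edgeR adjusted p = 1.3e-09). The inactivating gene was thus higher and the activating gene lower in every dme-2 library. GA20OX1, which supplies the precursor, fell by 1.12 and GA2OX2, a further inactivating enzyme, rose by 0.89 on the log2 scale. Not all synthesis genes fell: GA1, an early synthesis enzyme, was called higher (log2 fold change 0.84 ± 0.30 SE, edgeR adjusted p = 0.023), at no more than 1.03 TPM. RGL2, a DELLA repressor, fell by 1.24, and GASA6, a small gibberellin-regulated protein, lay at 196, 191 and 183 TPM in WT and 444, 422 and 409.8 TPM in dme-2 (1.22 ± 0.083 in log2). In all, 9 of 22 gibberellin genes rose (5 with limma on log2 TPM) and 5 fell, with a median of 0.2.

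The brassinosteroid, abscisic acid and auxin lists had medians between -0.31 and 0.27. Of 19 brassinosteroid genes 10 rose and 2 fell, led by BEE1, an early response factor, at 27.3, 24.1 and 22.4 TPM in WT and 62.4, 72.99 and 80.3 TPM in dme-2 (1.48 ± 0.088 in log2). Of 37 abscisic acid and dehydration genes 7 rose and 19 fell, with a median of -0.31. RD29B, a dehydration-response gene, lay at 1.17, 2.02 and 2.0 TPM in WT and 0.24, 0.13 and 0.08 TPM in dme-2 (-3.69 ± 0.40 in log2), and HAI2, a phosphatase of abscisic acid signalling, at 3.11, 4.22 and 3.64 and 0.96, 0.89 and 1.44 TPM (-1.58 ± 0.21 in log2). The auxin lists had medians between -0.06 and 0.19. AXR3, an Aux/IAA repressor, lay at 45.6, 46.6 and 48.7 TPM in WT and 92.3, 96.5 and 92.7 TPM in dme-2 (1.01 ± 0.060 in log2), and IAA29 of the same family fell by 1.42. Of 39 tested SAUR genes, small auxin-induced proteins, 13 rose (7 with limma on log2 TPM) and 8 fell, against 26.7% and 26.1% of all genes. AT1G43040, a SAUR, fell furthest, from 4.9, 4.11 and 3.88 TPM in WT to 0.48, 0.71 and 0.56 TPM in dme-2 (-4.13 ± 0.45 in log2).

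Heat-shock genes were higher from a low start. Of 29 tested genes 19 rose and 1 fell, with a median of 0.57, and 9 rose at least 2-fold. HSFA2, a heat-inducible heat-shock factor, lay at 1.37, 1.34 and 0.87 TPM in WT and 11.9, 12.8 and 12.4 TPM in dme-2 (log2 fold change 3.3 ± 0.17 SE, edgeR adjusted p = 2.5e-14). MBF1C, a coactivator of heat tolerance, lay at 33.9, 26.9 and 26.7 TPM in WT and 108, 139.7 and 133 TPM in dme-2 (2.21 ± 0.10 in log2). Both were separated, and HSFA2 reached no more than 12.8 TPM in dme-2. HSP70 (1.32) and HSP90.1 (1.29) are chaperones that also rose, and each matched several Col-0 genes, so their levels are uncertain. HSFA6A, a related factor, lay at 2.97, 2.21 and 2.21 TPM in WT and 0, 0.64 and 0.46 TPM in dme-2 and was the member that fell (-2.72 ± 0.40 in log2).

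Of 26 tested glutathione transferases, which attach glutathione to toxic or oxidised compounds, 16 rose and 4 fell. GSTU7 lay at 35.1, 37.7 and 31.7 TPM in WT and 88.5, 124 and 107 TPM in dme-2 (1.62 ± 0.079 in log2). GSTU24, with 2 Col-0 matches, rose by 1.48 on the log2 scale. GSTF11, which is used in aliphatic glucosinolate synthesis, went the other way, from 18.9, 20.1 and 16.2 TPM in WT to 1.95, 2.04 and 1.79 TPM in dme-2 (log2 fold change -3.27 ± 0.20 SE, edgeR adjusted p = 1.4e-12). GSTF12, needed to bring anthocyanin into the vacuole and picked after its value was seen, fell by 1.12 ± 0.089. These falls stand with the glucosinolate and flavonoid genes described below.

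Phosphate-starvation genes rose together. When phosphate is short, plants replace phospholipids by galactolipids, take up more phosphate and release it from organic compounds, and SPX proteins report the phosphate state. Of 27 tested genes 22 rose and 1 fell, with a median of 0.76, and 12 rose at least 2-fold. PS2, a starvation-induced phosphatase, lay at 414, 434 and 410.2 TPM in WT and 1287, 1322 and 1325 TPM in dme-2 (log2 fold change 1.65 ± 0.043 SE, edgeR adjusted p = 1.6e-19). MGD3, a galactolipid synthase of the starvation pathway, lay at 36.8, 37.7 and 36.8 TPM in WT and 179.5, 174 and 181 TPM in dme-2 (log2 fold change 2.27 ± 0.048 SE, edgeR adjusted p = 2.6e-21). Both genes were several-fold higher in every dme-2 library, with little spread. MGD2, its relative, rose by 1.61 and PLDP2, a phospholipase D that removes phospholipid head groups, by 1.51 on the log2 scale. SPX3 lay at 9.33, 11.3 and 10.5 TPM in WT and 29.5, 37.3 and 34.4 TPM in dme-2 (1.66 ± 0.087 in log2).

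The phosphate transporters PHT1;9 (2.83), PHT1;8 (1.95) and PHT1;1 (1.78) also rose on the log2 scale. PHT1;8 and PHT1;9 were under 2 TPM in all 6 libraries, and PHT1;1 matched 3 Col-0 genes. PHR1, the factor that drives the starvation genes, did not pass the test (edgeR adjusted p = 0.27). PHO2, the ubiquitin conjugase that lowers transporter levels, was the member that fell (-0.25 in log2). PHR1 and PHO2 were picked after their values were seen. Phosphate in tissue or medium was not measured in these data.

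Sulfur-deficiency genes rose in part. Of 25 tested sulfur genes 15 rose and 6 fell, with a median of 0.37. LSU1, a small protein induced when sulfur is low, lay at 99.3, 119.9 and 116 TPM in WT and 363, 337 and 338 TPM in dme-2 (1.53 ± 0.056 in log2). SDI1, a repressor of glucosinolate synthesis under sulfur deficiency, lay at 85.99, 78.5 and 78.2 TPM in WT and 214, 237 and 213 TPM in dme-2 (1.48 ± 0.052 in log2). GGCT2;1, which recycles glutathione, rose from 43.7, 45.9 and 36.9 TPM to 129, 149 and 147 TPM (1.7 ± 0.061 in log2). The groups were separated for all 3 genes. SULTR1;2, a sulfate uptake transporter, rose by 1.02, and APS4, an ATP sulfurylase, fell by 1.0 on the log2 scale.

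The 4 bHLH Ib factors of the iron-deficiency response were almost silent in dme-2 shoots. The bHLH Ib factors bHLH038, bHLH039, bHLH100 and bHLH101 are switched on when iron is short, as are the IMA peptides that act upstream of them and the reductase FRO3, while ferritin FER1, an iron store, rises when iron is ample. bHLH038 lay at 19.9, 17.8 and 17.9 TPM in WT and 0.72, 0.79 and 1.17 TPM in dme-2 (log2 fold change -4.63 ± 0.22 SE, edgeR adjusted p = 1.1e-14). bHLH039 lay at 10.1, 9.2 and 8.83 TPM in WT and 0.2, 0 and 0.34 TPM in dme-2 (log2 fold change -5.18 ± 0.30 SE, edgeR adjusted p = 3.2e-13), and bHLH100 at 10.5, 11.1 and 9.41 and 0.22, 0.57 and 0.12 TPM (log2 fold change -4.79 ± 0.28 SE, edgeR adjusted p = 4.0e-13). In all 3 factors the lowest WT library lay far above the highest dme-2 library. bHLH101 had 256 counts over the WT libraries and 2 over the dme-2 libraries, a ratio of 139 with a 95% counting interval of 38.2 to 1157.

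The rest of the iron list held genes of both directions, and of those that rose only FER1 is named here. IMA3 had 504, 369 and 421 counts in WT and 52, 36 and 42 in dme-2 (-3.4 ± 0.15 in log2), and IMA1 had 215, 163 and 226 counts in WT and 24, 34 and 27 in dme-2 (-2.9 ± 0.18 in log2). These peptides are short, and their deposited TPM scattered between libraries, so counts are given for them. FRO3 lay at 30.6, 32.1 and 32.98 TPM in WT and 9.08, 9.14 and 10.7 TPM in dme-2 (-1.69 ± 0.068 in log2). BTS, an E3 ligase that restrains the iron response and is itself induced with it, fell by 1.24 ± 0.051, and NAS4, which makes the chelator nicotianamine, by 1.31 ± 0.081. FER1 was higher, with a mean of 151 TPM in WT and 338 TPM in dme-2 (log2 fold change 1.22 ± 0.045 SE, edgeR adjusted p = 8.5e-17). Over the list, 9 of 32 tested genes rose and 14 fell, and 13 fell at least 2-fold, against 2.41% of all genes, with a median of -0.16. BTS, NAS4 and FER1 were picked after their values were seen, and the root uptake genes IRT1 and FIT had too few counts to be tested. bHLH101 lies 44 annotated loci from DME.

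Of 34 tested glucosinolate genes 20 fell, 12 of them at least 2-fold, and 7 rose, with a median of -0.57. Glucosinolates are sulfur-rich defence compounds of the cabbage family, made from methionine (aliphatic) or tryptophan (indole), and MYB28 drives the aliphatic genes. MAM3, which elongates the methionine chain, lay at 73.4, 70.1 and 70.2 TPM in WT and 1.17, 2.03 and 1.49 TPM in dme-2 (log2 fold change -4.7 ± 0.076 SE, edgeR adjusted p = 3.9e-23). BCAT4, the aminotransferase that opens the chain elongation, lay at 148, 144 and 152 TPM in WT and 37.8, 38.6 and 43.2 TPM in dme-2 (log2 fold change -1.85 ± 0.055 SE, edgeR adjusted p = 1.7e-18). IPMI1, an isomerase of the same cycle, lay at 67.98, 69.9 and 64.2 TPM in WT and 11.3, 6.49 and 11.2 TPM in dme-2 (-2.76 ± 0.10 in log2). The 3 chain-elongation genes were thus lower in every dme-2 library, MAM3 to near absence. IPMI2 of the same enzyme fell by 2.47 on the log2 scale, and BAT5, which carries the chain intermediates into the plastid, lay at 13.02, 13.5 and 11.6 TPM in WT and 0.79, 1.44 and 1.41 TPM in dme-2 (-3.14 ± 0.14 in log2). CYP79F1, the entry enzyme of the core pathway, fell by 3.58 and FMOGS-OX1, which oxidises the side chain, by 2.06, and both matched more than 1 Col-0 gene.

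Indole genes went both ways. CYP83B1 rose by 0.37 ± 0.049, SOT16 by 0.55 ± 0.049 and the regulator MYB51 by 0.26 ± 0.050 on the log2 scale. CYP79B2 fell by 0.56 ± 0.069, and CYP79B3 did not pass the test (edgeR adjusted p = 0.071). The aliphatic genes CYP83A1 (-1.57 ± 0.047), SOT18 (-1.3 ± 0.069) and SOT17 (-1.26 ± 0.088) all fell, and so did MYB28 (-0.79 ± 0.057). These 9 genes were picked after their values were seen. TGG2, a myrosinase that splits glucosinolates on damage, lay at 3.09, 2.42 and 1.49 TPM in WT and 0.53, 0.77 and 0.6 TPM in dme-2 (-1.85 ± 0.24 in log2). MAM1, the neighbour and close copy of MAM3, had higher counts in dme-2 (613, 629 and 732 for WT against 1379, 1135 and 1401), whereas its TPM showed no such difference (35.4, 37.3 and 36.6 for WT against 37.5, 35.6 and 37.1), so its direction is uncertain.

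**Figure D3:**
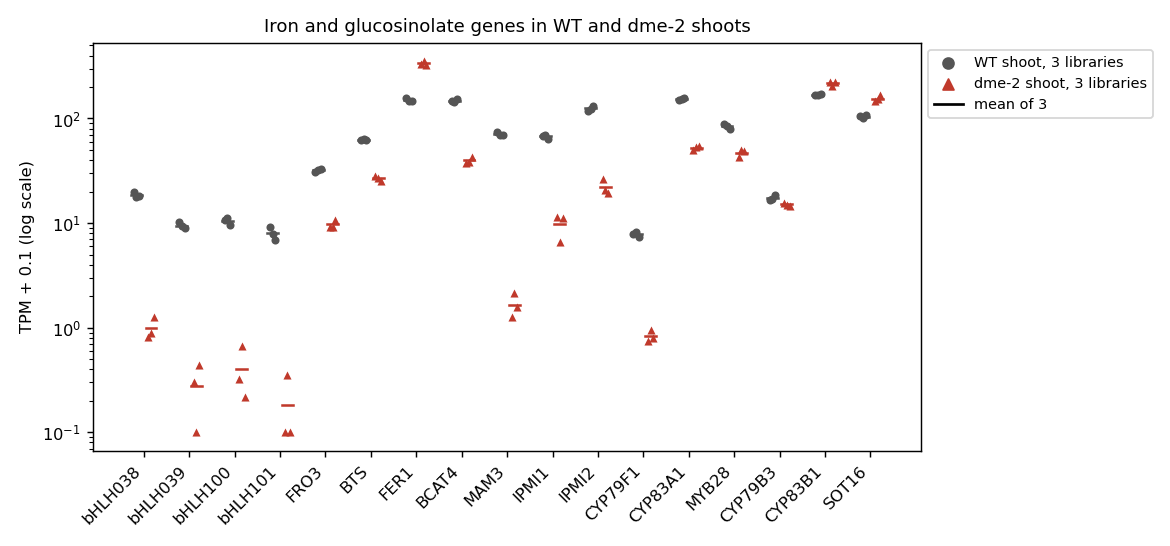
TPM + 0.1 on a log axis for iron genes (bHLH038 to FER1) and glucosinolate genes (BCAT4 to SOT16) in each of 3 WT (circles) and 3 dme-2 (triangles) shoot libraries, with bars at the means. The 4 bHLH factors and MAM3 sit far below WT in dme-2 (MAM3 from 70.1 to 73.4 TPM down to 1.17 to 2.03 TPM), whereas FER1, CYP83B1 and SOT16 sit above.

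Anthocyanin genes were lower. Flavonoids begin with chalcone synthase (TT4), and the late enzymes and their MYB-bHLH regulators make and decorate the red anthocyanins. Of 26 tested genes 21 fell and 1 rose, with a median of -0.8, and 9 fell at least 2-fold. UF3GT, a late glucosyltransferase, lay at 9.94, 10.8 and 11.3 TPM in WT and 2.51, 2.69 and 2.16 TPM in dme-2 (log2 fold change -2.16 ± 0.14 SE, edgeR adjusted p = 4.9e-12). LDOX, the synthase of the coloured pigment, lay at 35.7, 35.9 and 35.1 TPM in WT and 15.2, 14.7 and 11.7 TPM in dme-2 (-1.34 ± 0.085 in log2), and 5GT, a further glucosyltransferase, at 23, 21.9 and 21.8 and 6.33, 8.0 and 7.22 TPM (-1.54 ± 0.094 in log2). No library of one group reached the other. The bHLH regulator TT8 fell by 1.83 and the repressor MYBL2 by 1.35 on the log2 scale, so an activator and a repressor were both lower. TT4, picked after its value was seen, fell by 0.38 ± 0.053. MYB113, an anthocyanin MYB, was the member that rose, at no more than 1.71 TPM (1.89 ± 0.47 in log2).

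Most of the tested chloroplast genes were lower. Of 16 tested chlorophyll synthesis genes 14 fell and 1 rose, with a median of -0.47. CHLI1, a subunit of the chelatase that inserts magnesium into the pigment, lay at 316, 324 and 312 TPM in WT and 191, 192 and 192 TPM in dme-2 (-0.74 ± 0.043 in log2). Of 17 Calvin cycle genes 15 fell, of 24 photosystem subunits 15 fell, of 17 light-harvesting genes 13 fell, and of 10 photorespiration genes 8 fell, with medians between -0.19 and -0.32. NPQ4, the PsbS protein that sheds excess light energy, lay at 1349, 1359 and 1356 TPM in WT and 779, 757 and 741 TPM in dme-2 (-0.83 ± 0.044 in log2). Over these 5 lists the log2 fold changes lay between -0.83 and 0.84. The summed mesophyll markers, themselves photosynthesis genes, were lower in the same libraries (17910 to 19910 against 12020 to 13720 TPM), mostly through RBCS1A. The part of mesophyll content in these changes was not tested. Of 8 greening regulators 6 fell (3 with limma and no filter) and 2 rose. GNC, a GATA factor, lay at 16.4, 14.03 and 14.3 TPM in WT and 7.44, 6.44 and 9.8 TPM in dme-2 (-0.79 ± 0.12 in log2), and GLK1 and GLK2, which switch on chloroplast genes, at 118, 109 and 113 against 84.7, 80.5 and 87.8 TPM and at 83.9, 86.8 and 80.6 against 58.1, 61.9 and 56.2 TPM. BBX22, a light-signalling factor, rose by 0.55 on the log2 scale.

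Genes of growth by cell division and protein synthesis were lower too. Of 19 tested replication genes 18 fell, with a median of -0.65. MCM4, a subunit of the replicative helicase, lay at 14.7, 15.9 and 16.3 TPM in WT and 8.51, 9.3 and 7.83 TPM in dme-2 (-0.82 ± 0.075 in log2), and CDT1A, which loads that helicase, at 11.8, 10.9 and 12.8 and 6.2, 7.7 and 5.39 TPM (-0.88 ± 0.10 in log2). Of 27 cyclins 19 fell, with a median of -0.48, CYCA1;1 from 13.9, 15.7 and 16.4 TPM to 8.0, 7.86 and 9.29 TPM (-0.87 ± 0.10 in log2). Of 19 core and linker histones 16 fell. Of 26 tested cell cycle kinases and inhibitors 6 rose and 12 fell, with a median of -0.18. SMR7, an inhibitor induced by DNA damage, rose furthest of these, from 5.26, 6.47 and 3.54 TPM in WT to 12.9, 12.4 and 16.7 TPM in dme-2 (1.78 ± 0.30 in log2).

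Of 44 tested ribosomal protein genes, which mix cytosolic and plastid ribosomes, 43 fell, with a median of -0.45. RPL21C, of the plastid ribosome, lay at 629, 610.2 and 615 TPM in WT and 315, 339 and 320.0 TPM in dme-2 (-0.84 ± 0.043 in log2). FIB2, a fibrillarin of the nucleolus that methylates ribosomal RNA, lay at 63.1, 60.8 and 62.2 TPM in WT and 26.6, 24.8 and 24.5 TPM in dme-2 (-1.29 ± 0.067 in log2). NUC2, a nucleolin, fell by 1.49 and NUC1, the main nucleolin, by 0.60 on the log2 scale. The log2 fold changes of the ribosomal proteins lay between -0.93 and -0.08. The gene that rose in the translation list, BOP1 (0.51), is the leaf-base patterning gene of that symbol and not a ribosome factor.

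Leaf growth factors fell. The GRF factors and their partner GIF1 sustain cell division in young leaves, and class II TCP factors such as TCP4 end it. Of 20 tested genes 13 fell, with a median of -0.6. GRF4 lay at 14.9, 12.3 and 10.98 TPM in WT and 4.79, 6.31 and 3.67 TPM in dme-2 (log2 fold change -1.48 ± 0.15 SE, edgeR adjusted p = 1.4e-08). GIF1 lay at 23.96, 26.3 and 29.96 TPM in WT and 18.1, 12.2 and 14.9 TPM in dme-2 (-0.94 ± 0.12 in log2), and TCP4 at 34.2, 36.6 and 33.5 and 21.6, 21.4 and 21.6 TPM (-0.71 ± 0.071 in log2). Both the growth-sustaining and the growth-ending genes were thus lower, without overlap. GRF7 (-1.54) and GRF8 (-1.36) fell in log2 from under 3 TPM, and GRF3 (-0.66) and GRF5 (-0.63) by less. SPL9, a factor of the juvenile-to-adult phase change, lay at 13.3, 12.8 and 10.8 TPM in WT and 4.84, 3.47 and 6.37 TPM in dme-2 (-1.17 ± 0.13 in log2).

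Among floral organ identity genes PI had the largest rise, and its partner AP3 stayed near 0. In the flower PISTILLATA (PI) and APETALA3 (AP3) proteins act as a pair to specify petals and stamens, with SEPALLATA proteins as partners. PI lay at 2.33, 2.33 and 1.57 TPM in the WT shoots and at 59.8, 66.2 and 61.5 TPM in the dme-2 shoots (log2 fold change 5.17 ± 0.13 SE, edgeR adjusted p = 3.9e-20). AP3 lay at 1.14, 0.43 and 0.24 TPM in WT and 0.93, 0.15 and 0.53 TPM in dme-2, too low to be tested. AP1 reached no more than 0.35 TPM in any library, and AG, the stamen and carpel gene, lay between 0.39 and 1.68 TPM and did not pass the test (edgeR adjusted p = 0.31). PI was thus high in dme-2 shoots while AP3, AP1 and AG lay near 0 in both groups. SHP1, a carpel and fruit gene with 2 Col-0 matches, lay at 3.26, 3.76 and 2.44 TPM in WT and 3.58, 5.73 and 4.58 TPM in dme-2 and was called higher (log2 fold change 0.61 ± 0.19 SE, edgeR adjusted p = 0.0081). Its TPM overlapped between the groups, and with limma on log2 TPM the call was lost.

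Of the SEPALLATA genes SEP3 and SEP1 were lower, and SEP2 and SEP4 had too few counts to be tested. SEP3 lay at 26.7, 26.1 and 26.9 TPM in WT and 11.4, 9.38 and 7.36 TPM in dme-2 (log2 fold change -1.44 ± 0.11 SE, edgeR adjusted p = 3.2e-11). SEP1 lay at 13.2, 9.19 and 12.9 TPM in WT and 0.32, 0.55 and 0.72 TPM in dme-2 (-4.68 ± 0.25 in log2), and matched 2 Col-0 genes. Of the flowering-time genes, SOC1, a floral activator, lay at 17.2, 17.4 and 15.3 TPM in WT and 9.1, 7.48 and 8.51 TPM in dme-2 (-0.89 ± 0.11 in log2), and ATC, a relative of the repressor TFL1, at 12.7, 15.3 and 13.4 and 5.69, 4.75 and 3.28 TPM (-1.93 ± 0.16 in log2). In the whole list 4 of 15 tested genes rose and 6 fell, against 26.7% and 26.1% of all genes. PI lies 1573 annotated loci from DME on chromosome 5.

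**Figure D4:**
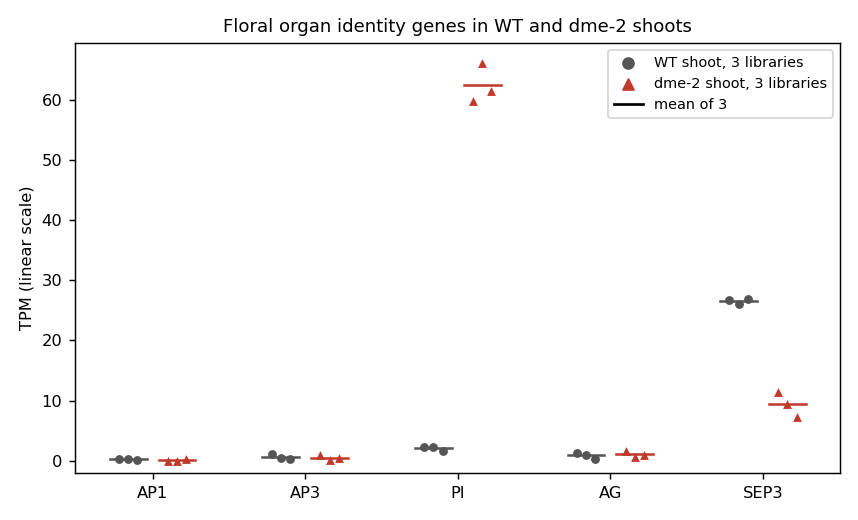
TPM on a linear axis for 5 floral organ identity genes in each of 3 WT (circles) and 3 dme-2 (triangles) shoot libraries, with bars at the means. PI stands at 59.8 to 66.2 TPM in dme-2 against 1.57 to 2.33 TPM in WT, SEP3 is lower in dme-2, and AP1, AP3 and AG lie near 0 in both groups.

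Trichome genes and some cuticle genes were lower in dme-2. Of 14 tested trichome and epidermis genes 9 fell (5 with limma on log2 TPM or with at least 10 counts in every library) and 1 rose, with a median of -0.36. PDF1, an epidermis-specific protein, lay at 425, 396 and 418 TPM in WT and 254, 209 and 225 TPM in dme-2 (-0.82 ± 0.060 in log2). MYB23, GIS and GL3, all of trichome formation, fell by 1.73, 1.63 and 1.6 on the log2 scale, from levels of 3.04 TPM or less. Of 35 wax and cutin genes 14 rose and 14 fell, and the 4 that changed 2-fold all fell. CUS2, a cutin synthase, lay at 10.6, 9.91 and 9.88 TPM in WT and 1.08, 1.13 and 1.23 TPM in dme-2 (-2.87 ± 0.17 in log2), and DCR, an acyltransferase of cutin, at 38.3, 38.2 and 39.7 and 15.2, 14.97 and 16.1 TPM (-1.33 ± 0.066 in log2). Of 8 tested lipid transfer proteins 4 rose and 3 fell, with a median of 0.1, and the 3 that fell did so at least 2-fold. EARLI1 lay at 1266, 1227 and 1311 TPM in WT and 580.0, 532 and 496 TPM in dme-2 (-1.18 ± 0.044 in log2) and LTP6 at 234, 253 and 244 and 119, 115 and 83.4 TPM (-1.19 ± 0.062 in log2), while LTP5 rose by 0.73. Of 15 stomatal lineage genes 8 fell and 1 rose, with a median of -0.31.

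Several families of cell wall genes were higher, and others were split. XTH enzymes cut and rejoin xyloglucan as walls loosen, and of 20 tested genes 15 rose and 2 fell, with a median of 0.63. XTH24 lay at 217, 226 and 213 TPM in WT and 849.6, 931 and 942 TPM in dme-2 (log2 fold change 2.05 ± 0.043 SE, edgeR adjusted p = 2.7e-21). XTH18 lay at 48.7, 45.3 and 47.2 TPM in WT and 256, 297 and 296 TPM in dme-2 (2.48 ± 0.057 in log2), with 4 Col-0 matches. Both were several-fold higher in every dme-2 library. Of 37 arabinogalactan proteins 24 rose and 4 fell, with a median of 0.51, and FLA9 of these lay at 112, 107 and 106 TPM in WT and 244, 247 and 232 TPM in dme-2 (1.14 ± 0.056 in log2). Of 9 type III peroxidases 6 rose and 1 fell, among them PER64, which polymerises lignin in the root barrier, at 4.55, 5.14 and 4.74 TPM in WT and 20.8, 23.6 and 23.02 TPM in dme-2 (2.16 ± 0.11 in log2).

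Of 20 expansins, which loosen walls, 6 rose and 6 fell, with a median of -0.06. These counts are near the shares of all genes (26.7% higher and 26.1% lower). Of 19 phenylpropanoid and lignin genes 4 rose and 9 fell, with a median of -0.09.

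Secondary wall genes were mostly higher. Of 29 tested xylem and secondary wall genes 18 rose and 2 fell, with a median of 0.43. CESA4 lay at 18.4, 20.4 and 20.7 TPM in WT and 39.8, 39.1 and 40.9 TPM in dme-2 (0.98 ± 0.057 in log2), and its partners in the secondary wall cellulose synthase, CESA8 (0.85) and CESA7 (0.79), rose by like amounts in log2. SND1, a master factor of fibre walls, lay at 0.33, 0.16 and 0.14 TPM in WT and 1.24, 2.32 and 0.97 TPM in dme-2 (2.79 ± 0.52 in log2). The summed xylem markers were higher in the same libraries (75.2 to 81.4 against 122.9 to 129.9 TPM), but they include CESA4 and CESA7 (IRX3) themselves. Of the other markers in that sum, XCP1 rose by 0.44 on the log2 scale. VND7 was not called (log2 fold change -0.19 ± 0.25 SE, edgeR adjusted p = 0.55). The part of xylem content in these changes was not tested. Of 10 primary wall cellulose genes 8 rose, with POM1, a chitinase-like wall protein, at 623, 588 and 604 TPM in WT and 972, 959 and 941 TPM in dme-2 (0.69 ± 0.041 in log2).

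Metabolic and stress lists outside these groups held single large changes. Of 16 dark and starvation genes 11 rose and 1 fell, with a median of 0.41, and EXL2 lay at 85.7, 84.5 and 85.4 TPM in WT and 235, 196 and 215 TPM in dme-2 (1.35 ± 0.058 in log2). Of 30 autophagy genes 18 rose, with a median of 0.21. NRT1.8, a nitrate transporter of the xylem, lay at 18, 19.7 and 19.6 TPM in WT and 63.4, 60.9 and 58.5 TPM in dme-2 (1.65 ± 0.056 in log2). CSD2, the plastid copper/zinc superoxide dismutase, lay at 38.3, 37.4 and 39.5 TPM in WT and 14.1, 14.8 and 14.9 TPM in dme-2 (-1.34 ± 0.087 in log2). Among 13 cold-regulon genes 4 rose and 6 fell, and the largest change was the rise of KIN1 (1.95 ± 0.19 in log2). KIN1 had 25, 42 and 28 counts in WT and 135, 127 and 127 in dme-2. Its TPM was 0, 25.03 and 17.48 in WT, so count and TPM disagree in the first WT library. COR15A, a chloroplast cold-protection protein, lay at 427, 413 and 418 TPM in WT and 149.6, 145 and 192 TPM in dme-2 (-1.37 ± 0.056 in log2). COR78 lay at 92.3, 90.6 and 85.9 and 34.3, 38.5 and 37.9 TPM (-1.29 ± 0.047 in log2). LAC8, a laccase with 2 Col-0 matches, rose from 3.23, 4.32 and 3.19 TPM to 18.7, 18.5 and 19.1 TPM (2.38 ± 0.10 in log2), in a family of 12 with 5 higher (3 with limma on log2 TPM) and 4 lower. Among 22 aquaporins 11 rose and 6 fell, and NIP3;1 of this family fell from 2.68, 3.28 and 2.51 TPM to 0, 0 and 0.25 TPM (-4.64 ± 0.56 in log2).

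Of 18 imprinted genes and reported DME targets of the seed, 3 had enough counts in shoots to be tested. MPC, an imprinted gene that codes for the end domain of a poly(A)-binding protein, lay at 5.36, 3.23 and 4.79 TPM in WT and 0.53, 0 and 0 TPM in dme-2 (log2 fold change -2.1 ± 0.48 SE, edgeR adjusted p = 7.0e-04). HDG8, a homeobox gene, rose by 0.82 in log2, with no library above 0.57 TPM, and its call was lost with DESeq2 and with a replicate block.

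The largest falls were loci without reads in dme-2. The locus ATLER-1G59020 had 50, 50 and 62 counts in WT and 0 in each dme-2 library, which makes it at least 58.8-fold higher in WT against a floor of 3 counts over the group. ATLER-5G32820 had 45, 53 and 63 counts in WT and 0 in dme-2 (at least 58.4-fold). Neither locus has a Col-0 match and no function is assigned to them. In all 11 loci had at least 10 counts in every WT library and 0 in every dme-2 library, of which 8 were on chromosome 1, 1 on chromosome 3 and 2 on chromosome 5, and 2 loci, both on chromosome 2, had the reverse. On chromosome 1 all of them but ATLER-1G60170 formed runs of adjacent loci, 1 of 3 loci (ATLER-1G46030, ATLER-1G46040 and ATLER-1G46050) and 1 of 4 (ATLER-1G59010, ATLER-1G59020, ATLER-1G59030 and ATLER-1G59050). From counts alone, a silent locus and a locus that differs in sequence from the reference cannot be told apart.

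SDH3-1, a subunit of succinate dehydrogenase, stood out by its level. It had 234, 242 and 308 counts in WT and 1, 4 and 2 in dme-2, and its TPM was 118, 112 and 130.4 in WT and 0 in all dme-2 libraries (log2 fold change -6.81 ± 0.26 SE, edgeR adjusted p = 9.9e-17). The locus matched 2 Col-0 genes, so reads may have gone to a copy, and it lies 492 annotated loci from DME. GER2, a germin-like protein with 8 Col-0 matches, had 153 counts over the WT libraries and 2 over the dme-2 libraries, a ratio of 83.3 with a 95% counting interval of 22.7 to 694. ATLER-5G16160, with no Col-0 match and 200 loci from DME, had 592 counts in WT and 5 in dme-2.

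The position of changed genes was read along the chromosomes. The share of tested genes called with at least a 2-fold change was 8.05% on chromosome 1, 6.8% on chromosome 2, 6.34% on chromosome 3, 6.91% on chromosome 4 and 6.74% on chromosome 5, against 7.04% in all. Within 100 loci of DME it was 5.3% (8 of 151 genes), between 100 and 300 loci 5.81% (18 of 310), between 300 and 600 loci 9.28% (27 of 291) and between 600 and 1200 loci 4.44% (21 of 473). Genes changed 2-fold were thus spread over all 5 chromosomes, and the share within 300 loci of DME was below that of all genes.

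Levels in the WT calli of the same series were set beside those of the shoots. The count and TPM columns labelled dme-2 callus contradict each other. In them DME had 2126, 2279 and 2542 counts but 3.21, 3.14 and 3.54 TPM, against 1001, 1317 and 1070 counts and 13.2, 11.2 and 10.1 TPM in the WT calli. SDH3-1 had 272 to 343 counts there but 0 TPM in all 3 libraries. At both genes the TPM columns resembled the dme-2 shoots, with DME below WT and SDH3-1 at 0, and the count columns did not. Which columns hold the dme-2 calli was not tested further, so no other value of these libraries is given. The WT callus values are deposited TPM of 3 libraries, given as a description and without a test.

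Some genes that were higher in dme-2 shoots were also high in WT calli. HSFA2 lay at 81.7, 110.2 and 161 TPM in WT calli, and in the shoots at 0.87 to 1.37 TPM (WT) and 11.9 to 12.8 TPM (dme-2). GA2OX6 lay at 190.3, 139 and 174 TPM in WT calli, XTH24 at 1223, 1214 and 1414 TPM and JAZ8 at 99.6, 67.6 and 69.95 TPM. The dme-2 shoot levels of HSFA2, GA2OX6 and XTH24 lay between those of WT shoots and of WT calli, and those of JAZ8 overlapped the callus range. PI lay at 27.8, 20.1 and 15.4 TPM in WT calli, below the dme-2 shoots and above the WT shoots.

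Of the other genes set beside the calli, some moved towards the callus level in dme-2 shoots and some away from it. MGD3 lay between 0.43 and 0.83 TPM in the WT calli, well under both kinds of shoot, and its rise in dme-2 shoots took it further from the callus level. RL1, bHLH038, bHLH101 and UF3GT were at 0 in the 3 WT callus libraries, and MAM3 lay at no more than 0.6 TPM there. The lower levels of bHLH038, bHLH101, MAM3 and UF3GT in dme-2 shoots were thus nearer to the callus level, and the rise of RL1 was not. SDH3-1 lay at 194, 199 and 246 TPM in the WT calli, above both kinds of shoot, so its fall took it further from the callus level.

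**Figure D5:**
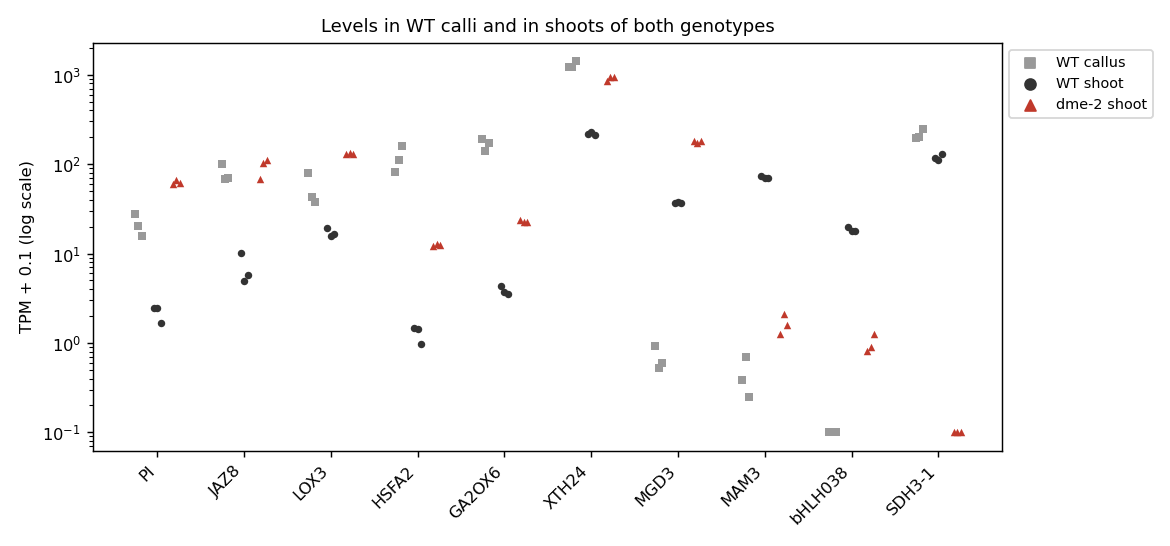
TPM + 0.1 on a log axis for 10 genes in 3 WT callus (squares), 3 WT shoot (circles) and 3 dme-2 shoot (triangles) libraries. PI, JAZ8, LOX3, HSFA2, GA2OX6 and XTH24 are lowest in WT shoots, and PI and LOX3 are highest in dme-2 shoots. MGD3 is under 1 TPM in the WT calli, and SDH3-1 is at 0 in the dme-2 shoots.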

How the data were processed

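Stranded mRNA libraries made from total RNA of shoots and calli were sequenced by the authors, who aligned reads with STAR 2.7.10a and quantified genes of the Ler annotation with RSEM 1.3.1, and deposited a table of raw counts and a table of TPM. Counts of the 6 shoot libraries were tested here with edgeR 4.0.16 (R 4.3.3): trimmed-mean scaling, removal of low genes by filterByExpr, a quasi-likelihood fit with genotype as the term, and Benjamini-Hochberg adjustment over the 19114 genes tested. SE is the absolute log2 fold change divided by the square root of F. The deposited TPM are printed per library, and callus values are TPM of WT only, since the counts and TPM labelled dme-2 callus contradict each other. Ler loci were named through their Col-0 homologs and RefSeq symbols (26500 of 27147 loci had a homolog and 3683 had more than 1). The genes and lists were chosen with earlier results of these data known, and lists were not tested. Named were DME, the 10 largest rises and falls, and in each list with a median of at least 0.4 in size, or 20% of its genes changed 2-fold, up to 8 called genes with the largest changes (3 in other lists). On simulated counts with 200 changed genes the test recovered 99 of 100 genes changed 2-fold and made 17 false calls. Every gene was simulated with the same dispersion, and far fewer genes changed than the 52.8% called here. These numbers therefore do not give the error rates in the data. DESeq2 1.42.0, limma 3.58.1 on log2 TPM, other scalings and filters, a replicate block and each left-out library were alternatives. Promoter and protein sequences of the Ler build were not used here.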

Additional observations from a re-analysis of the deposited data

How the results depend on the processing

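The counts of genes called kept within 1.5 times of their main values in most alternatives. The genes lower at least 2-fold (461 at an adjusted p under 0.05, 466 with the study's cut-off) were 283 and 283 when every library had to hold at least 10 counts, 249 and 266 with limma on log2(TPM + 1), and 259 and 281 with limma and no TPM filter; fewer low genes were tested in the first, and the cause of the others was not tested. Within 100 loci of DME, 8 genes changed 2-fold, and 5 with at least 10 counts in every library. DESeq2 called 4520 higher and 4365 lower, and 871 and 436 at 2-fold. With any 1 library left out, 4500 to 5077 genes were higher, 4331 to 4890 lower, 893 to 967 higher at 2-fold and 458 to 509 lower at 2-fold. Of 6446 values of 439 named genes under the alternatives, 6230 kept direction and call, 216 lost the call and 0 reversed. The 55 genes that lost it include HY5, GL3, GRF6, ZFP5, EGL3, LTP2, COR15B and MAF1. List counts moved by over 1.5 times in 15 of 570 values and list medians by more than the median SE of their genes in 25 of 360, and 0 medians reversed. With limma on log2(TPM + 1) or log2(TPM + 0.1) the higher receptor-like proteins went from 12 to 7, gibberellin genes from 9 to 5, SAUR genes from 13 to 7 (5 at TPM + 1 with no filter) and laccases from 5 to 3, and the lower trichome and epidermis genes from 9 to 5, as they did with at least 10 counts in every library. Lower greening regulators went from 6 to 3 with limma and no filter. Medians under limma, at TPM + 1, at TPM + 0.1 and with no filter, were 0.918, 0.921 and 0.901 for jasmonate (1.034 in edgeR), 0.369, 0.42 and 0.31 for ethylene (0.527) and 1.055, 1.059 and 1.055 for touch and calcium genes (0.866). They were 0.604 and 0.684 at TPM + 1 and TPM + 0.1 for type III peroxidases (0.91, and 0.758 with at least 10 counts in every library) and 0.87 and 0.873 for camalexin and indole defence (0.807, and 0.872 with at least 10 counts). At TPM + 1 and with no filter they were -0.463 and -0.463 for greening regulators (-0.59) and -0.55 and -0.534 for replication (-0.655). With 1 library left out the median was -0.52 to -0.434 for chlorophyll synthesis, -0.611 to -0.478 for greening regulators, 1.001 to 1.115 for jasmonate, 0.563 to 0.688 for xyloglucan endotransglucosylases and -0.651 to -0.569 for replication. The cause of these shifts was not tested. Same-numbered WT and dme-2 libraries did not deviate together (correlations -0.16, -0.04 and -0.06), so the numbers do not pair them; with a replicate block 4720 genes were higher and 4597 lower, 880 and 454 at 2-fold, and 888 and 465 with the study's cut-off. With 3 libraries a group, genes under about 1 TPM rest on few counts, and no phosphate, iron, hormone, metabolite or cell-type measurement accompanies these libraries.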
